A study of Sus scrofa with 8 samples.

Results

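Collagen genes were examined in the olfactory epithelium of newborn piglets with and without a functional CFTR gene. The set comprised every gene of the deposited count table whose symbol has the form of a collagen chain (COL, a type number, A and a chain number), apart from COL17A1, a transmembrane collagen of epithelial cells. It held 41 of the 25880 pig genes in the table, namely 8 fibrillar chains, 7 chains of basement membranes, 7 chains of cartilage and 19 others. A name table paired 37 of them with their Ensembl identifiers, and COL7A1, COL9A2, COL20A1 and COL26A1 were named by position. COL4A1, COL6A4 and COL19A1 had no matching identifier and were not analysed here.

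The study compared 4 wild-type piglets, numbered 5, 9, 12 and 23, with 4 CFTR-knockout piglets, numbered 6, 18, 20 and 21, to examine the molecular pathology of smell loss in cystic fibrosis. CFTR encodes an epithelial anion channel, and its loss of function causes that disease. All 8 were newborn Sus scrofa, each label names a separate piglet, and the tissue was dissected, frozen and sequenced as mRNA in bulk. The sources used here do not say how the knockout allele was made, nor do the labels name litters, sexes or sequencing batches.

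Collagens are secreted proteins in which 3 chains wind into a triple helix. Fibrillar collagens such as types I, III and V are cleaved outside the cell and pack into the cable-like fibrils of dermis, bone and the lamina propria, the connective tissue under an epithelium. Network-forming type IV, with types XV and XVIII, lies in the basement membranes of epithelia, vessels and nerves, while types II, IX, X and XI build cartilage. Most are made by fibroblasts, bone-forming osteoblasts, chondrocytes and vessel cells rather than by the olfactory epithelium itself.

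Libraries held 30836904 to 43253395 counts. CFTR was lower in every knockout piglet (5.24 to 8.37 in CPM, counts scaled to library size by the TMM method) than in every wild-type piglet (34.0 to 56.5 CPM), so its transcript was still counted in the knockouts. The log2 fold change was -2.56 ± 0.21 (SE, edgeR adjusted p = 0.0121), and CFTR was the only gene of 17175 tested that edgeR called. The adjusted p was 0.122 without knockout piglet 6, 0.0544 without knockout piglet 20 and 0.0557 with wild-type piglet 9 and knockout piglet 18 left out together. Markers of olfactory sensory neurons were present in all libraries. Over 5 genes they summed to 1436 to 2482 CPM in the wild type, lowest in piglets 5 and 9, and to 2368 to 2827 CPM in the knockout. All 5 had a log2 fold change above 0, and 4 had an unadjusted edgeR p under 0.05 (5.40% of all genes on that side). Epithelial markers summed to 1427.5 to 2034 CPM in the wild type and 1233 to 1569 CPM in the knockout. All 5 were below 0, and 2 had such a p (5.80% of all genes on that side). Glial markers (6 of 7 listed genes in the table) summed to 195 to 386 CPM in the wild type and 208 to 254 CPM in the knockout. All 6 were below 0, 2 had such a p, and the knockout values of 1 lay wholly lower (3.36% of all genes). Mural and smooth muscle markers (7 of 7) summed to 403 to 745 CPM in the wild type and 399 to 519 CPM in the knockout. Of these, 5 were below 0, and 1 had such a p. The part of these differences in the collagen values was not tested. The neuron marker OMP was not matched and was not analysed here.

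Markers of other tissues were also counted, and 3 libraries stood apart in them. Bone markers (9 of 10 listed genes in the table) summed to 256 to 642 CPM in wild-type piglets, to 7015 CPM in knockout piglet 18 and to between 214 and 378 CPM in the other knockouts. Osteoclast markers (7 of 8) summed to 1088 CPM in knockout piglet 18, to 122 CPM in wild-type piglet 9 and to 9.47 to 25.1 CPM elsewhere. IBSP, the bone sialoprotein, was 1838 CPM in knockout piglet 18, 117 CPM in wild-type piglet 9 and 1.15 to 4.14 CPM in the other 6. Both sums and IBSP were thus highest in knockout piglet 18 and next in wild-type piglet 9. Not every listed member followed that order, among them SPP1, which made up most of the bone sum in each library. SPP1 was 4492.5 CPM in knockout piglet 18, 418 CPM in wild-type piglet 5 and 408 CPM in wild-type piglet 9.

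Cartilage markers (10 of 10) summed to 659 CPM in knockout piglet 18, against 102 to 199 CPM in the rest, and aggrecan (ACAN), the main proteoglycan of cartilage, was 256 CPM against 19.5 to 56.9 CPM. Fibroblast markers (9 of 10) summed to 255 CPM in knockout piglet 18, 227 CPM in wild-type piglet 5 and 104 to 132 CPM in the rest. Endothelial markers (7 of 8) summed to 444 CPM in wild-type piglet 5 and to 208 to 320 CPM elsewhere. Of these lists, OCSTAMP of osteoclasts had no count in wild-type piglet 5 and knockout piglet 6, the fibroblast gene DPT had none in wild-type piglet 12, and TCF21, also of fibroblasts, had at most 0.0698 CPM. Results that rest on knockout piglet 18 are therefore given with and without it, and the part of these tissues in them was not tested. In bulk tissue, fewer cells of a type and less RNA per cell cannot be told apart, nor can the lamina propria be told apart from adjoining tissue.

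All 41 collagen genes passed the filter on low counts. Per length (RPKM, the CPM per kilobase of annotated exon), COL6A1 and COL1A1 had the highest medians over the 8 libraries, at 99.6 and 99.0 RPKM. COL1A2 followed at 78.1, COL3A1 at 76.2 and COL6A2 at 39.9 RPKM. Every fibrillar chain had a median of at least 2.12 RPKM, whereas the basement membrane class ran from 25.1 RPKM for COL4A2 down to levels below 1 RPKM for COL4A3 and COL4A4. Collagens together took 0.272% to 0.697% of the counts in 7 libraries and 3.67% in knockout piglet 18.

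**Figure D1:**
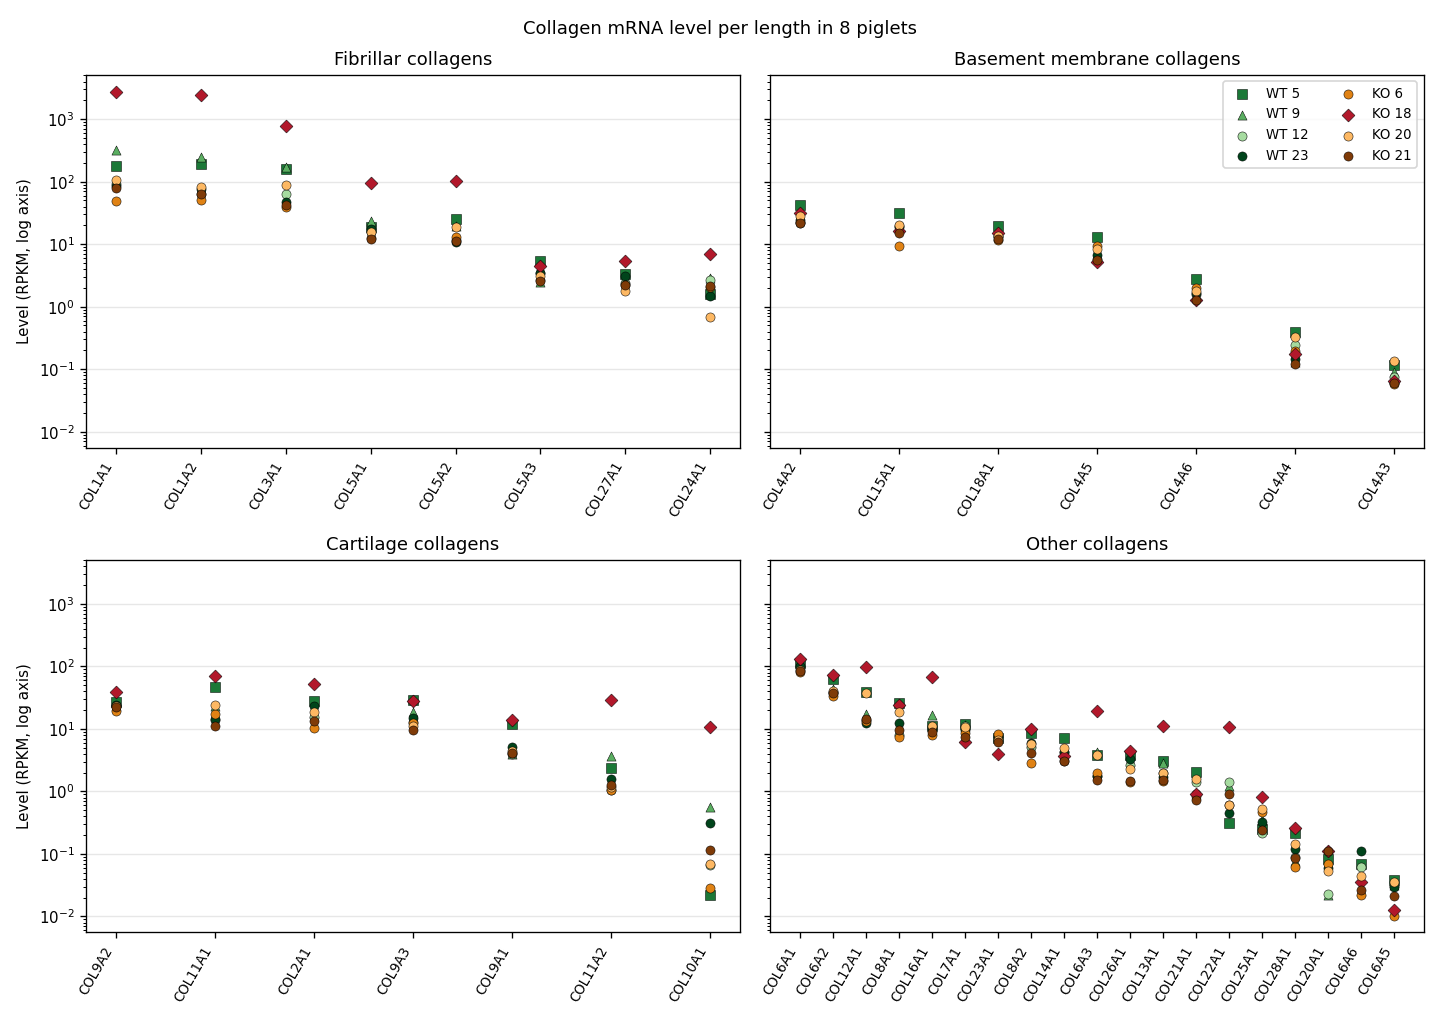
Level per length of each collagen gene (RPKM, log axis) in the 4 wild-type (green) and 4 knockout (orange and red) piglets, in 4 panels by class, with 1 point per library. Knockout piglet 18 (red diamonds) sits above the other libraries for 7 of 8 fibrillar and 6 of 7 cartilage collagens but for 0 of 7 basement membrane collagens.

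Where 4 values per group follow each other, they are those of piglets 5, 9, 12, 23 (wild type) and 6, 18, 20, 21 (knockout), always in that order. The fibrillar class was dominated by type I collagen, the main protein of bone and connective tissue. Both type I chains varied more between piglets than any basement membrane collagen. COL1A1, which encodes the alpha 1 chain (chromosome 12, 26379000 to 26397284, minus strand, build not stated), was 1132, 2056, 589 and 534 CPM in the wild type and 313, 17387, 664 and 494 CPM in the knockout. COL1A2, the alpha 2 chain (chromosome 9, 74174220 to 74210398, plus strand), was 1031, 1308, 341 and 402 CPM in the wild type and 275, 13268, 434 and 339 CPM in the knockout. Both were highest in knockout piglet 18, at 29.5 and 33.0 times the median of the other 7 libraries, and next in wild-type piglets 9 and 5. COL1A1 was the 2nd most counted gene of the knockout piglet 18 library, the 20th of wild-type piglet 9 and between the 43rd and the 424th elsewhere.

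The knockout and wild-type ranges of type I collagen overlapped, and the sign of the mean difference was set by 1 library. COL1A1 averaged 1078 ± 706 CPM in the wild type and 4714 ± 8450 CPM in the knockout (SD, n = 4 each), and the log2 fold change came to 2.13 ± 1.25 (edgeR adjusted p = 0.514). Without knockout piglet 18 the knockout mean was 490 ± 176 CPM (n = 3) and the log2 fold change -1.14 ± 0.48 (edgeR adjusted p = 0.398). For COL1A2 the log2 fold change was 2.22 ± 1.27 with all libraries and -1.14 ± 0.46 without that piglet (edgeR adjusted p = 0.507 and 0.385). Neither direction passed the test.

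Type III and type V collagens co-assemble with type I in soft connective tissue and set fibril diameter. COL3A1, COL5A1 and COL5A2 were likewise highest in knockout piglet 18, by smaller factors, while the low type V chain COL5A3 was highest in wild-type piglet 5, at 33.5 CPM against 28.2 CPM in knockout piglet 18. COL3A1 (chromosome 15, 93556914 to 93596360, plus strand) was 865, 922, 348 and 256 CPM in the wild type and 215, 4211, 483 and 229 CPM in the knockout. Its log2 fold change was 1.10 ± 0.96 (edgeR adjusted p = 0.644), and -0.95 ± 0.49 without knockout piglet 18. COL3A1 lies tail to tail with COL5A2 on the opposite strand, 15188 bases apart with no gene between them, and 136 of its exon bases are shared with another annotated gene.

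COL5A2, the type V alpha 2 chain, was 182, 143, 82.3 and 77.3 CPM in the wild type and 92.6, 739, 136 and 81.7 CPM in the knockout. COL5A1, the alpha 1 chain, was 104, 129, 86.9 and 95.4 CPM in the wild type and 68.6, 533, 87.3 and 65.6 CPM in the knockout. Apart from piglet 18, 2 knockout values of COL5A1 lay below the wild-type range and 1 at its lower end, whereas those of COL5A2 lay within it. The log2 fold change of COL5A1 was 0.86 ± 0.66 with all libraries and -0.49 ± 0.16 without knockout piglet 18 (unadjusted p = 0.0121, edgeR adjusted p = 0.352). The lower fibrillar chains COL5A3, COL27A1 and COL24A1 had median levels of 3.28, 2.62 and 2.12 RPKM, and knockout piglet 18 was 1.45, 2.20 and 3.37 times the median of the others.

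Within the collagen counts, fibrillar chains took 37.4% to 67.6% in 7 libraries and 88.7% in knockout piglet 18. COL1A1, COL1A2 and COL3A1 alone made up 3.14% of all counts in that library and 85.4% of its collagen counts, against 30% to 63% of the collagen counts elsewhere. The next highest fibrillar share was 67.6% in wild-type piglet 9, which was also second to knockout piglet 18 in IBSP and in the osteoclast marker sum.

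**Figure D2:**
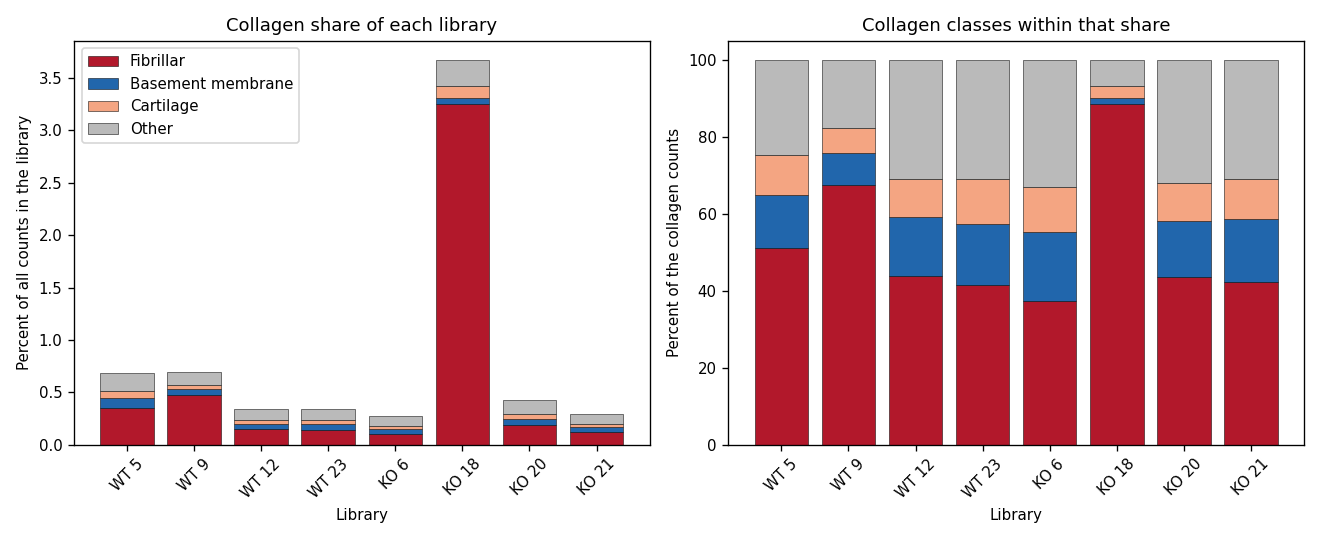
Left, percentage of all counts of each library that fell on collagen genes, stacked by class; right, the classes as a percentage of those collagen counts. Knockout piglet 18 reaches 3.67% of its counts, 88.7% of them fibrillar, while the other 7 bars lie between 0.272% and 0.697%.

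Cartilage collagens were led per length by type IX, XI and II chains, and 6 of the 7 were highest in knockout piglet 18, by factors that differed widely between chains. COL2A1, the alpha 1 chain of the main cartilage collagen, was 137, 89.8, 76.0 and 117 CPM in the wild type and 51.5, 264, 92.2 and 67.3 CPM in the knockout. COL11A1, which nucleates cartilage fibrils, was 298, 146, 86.9 and 90.3 CPM in the wild type and 108, 439, 151 and 70.8 CPM in the knockout. Wild-type piglet 5 came second to knockout piglet 18 for both. Their log2 fold changes were 0.18 ± 0.47 and 0.31 ± 0.59 (edgeR adjusted p = 0.891 and 0.850), and -0.58 ± 0.24 and -0.50 ± 0.44 without knockout piglet 18.

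Type IX collagen decorates the surface of cartilage fibrils. COL9A2, named by position, was among the steadier of the class, at 158, 134, 133 and 141 CPM in the wild type and 113, 230, 135 and 131 CPM in the knockout. COL9A1 was 35.4, 11.9, 11.6 and 15.3 CPM in the wild type and 12.2, 40.6, 13.0 and 12.3 CPM in the knockout, so that 1 library in each group stood above the other 3. COL9A3 was 42.3, 27.6, 19.5 and 21.9 CPM in the wild type and 18.3, 41.3, 16.4 and 14.4 CPM in the knockout. It was the 1 chain of the class whose highest value was in wild-type piglet 5, and 568 of its 1479 exon bases are shared with TCFL5, so its counts are less certain. Its log2 fold change was -0.30 ± 0.37, and -0.76 ± 0.25 without knockout piglet 18 (unadjusted p = 0.0160).

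COL10A1, the collagen of hypertrophic cartilage at the front of bone formation, was low except in 1 library. The counts behind it were 3, 57, 9 and 44 in the wild type and 4, 1264, 10 and 16 in the knockout. At 35.2 CPM in knockout piglet 18 and at most 1.80 CPM elsewhere, it had the widest range of the 41 genes. The log2 fold change was 3.54 ± 1.80 (unadjusted p = 0.0802, edgeR adjusted p = 0.472), the largest of the set, and -1.72 ± 0.98 without that piglet. COL11A2, named here after its values were seen, was 214 CPM in knockout piglet 18, against 7.63 to 27.5 CPM in the others.

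Basement membrane collagens ranged at most 3.38-fold between libraries, for COL15A1, and had another order of libraries. Some chains of the other classes varied as little, such as COL5A3 (2.18-fold), COL9A2 (2.03-fold) and COL6A1 (1.61-fold). Without knockout piglet 18, COL5A1 (1.97-fold), COL5A2 (2.35-fold) and COL2A1 (2.65-fold) also ranged less than COL15A1. COL4A2, a chain of the type IV network found in every basement membrane, was 448, 272, 232 and 254 CPM in the wild type and 241, 325, 298 and 230 CPM in the knockout. COL18A1, whose C-terminal fragment is endostatin, was 177, 120, 120 and 119 CPM in the wild type and 106, 136, 120 and 110 CPM in the knockout. COL4A5 was 87.9, 42.5, 39.8 and 45.3 CPM in the wild type and 64.7, 36.2, 56.8 and 38.6 CPM in the knockout. Wild-type piglet 5 was the highest library for these and for 6 of the 7 chains of the class, and knockout piglet 18 for none.

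COL15A1, which links basement membranes to the fibrils beneath, was the chain of this class with a p under 0.05 before adjustment. It was 193, 121, 120 and 113 CPM in the wild type and 57.1, 98.3, 123 and 93.7 CPM in the knockout. The means were 137 ± 37.7 and 93.0 ± 27.2 CPM (SD, n = 4 each), with a log2 fold change of -0.56 ± 0.24 (unadjusted p = 0.0489, edgeR adjusted p = 0.446). The groups overlapped through knockout piglet 20, and without wild-type piglet 5, which also had the highest endothelial marker sum, the log2 fold change was -0.35 with an edgeR adjusted p of 0.488. PECAM1, an endothelial junction protein, was 160 CPM in wild-type piglet 5 and 71.9 to 114 CPM elsewhere. The part of vessel content in the collagen values was not tested.

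The other chains of the class were COL4A6 and the low COL4A3 and COL4A4. COL4A6 was 12.9, 8.23, 7.49 and 7.70 CPM in the wild type and 9.38, 5.91, 8.25 and 6.08 CPM in the knockout. COL4A3 was 0.961, 0.728, 0.604 and 0.488 CPM in the wild type and 0.478, 0.529, 1.12 and 0.496 CPM in the knockout. COL4A4 was 2.48, 0.823, 1.5 and 0.907 CPM in the wild type and 1.21, 1.09, 2.03 and 0.757 CPM in the knockout. The groups overlapped for all 3. COL4A3 and COL4A4 lie head to head on chromosome 15 with gene spans that overlap by 486 bases, 164 of them in exons of both. COL4A6 shares 1857 exon bases with ATG4A and an unnamed gene, and its counts are uncertain for that reason. Log2 fold changes of the 7 chains were all below 0, with a median of -0.17. Without knockout piglet 18, 6 of 7 were below 0, and without wild-type piglet 5, 3 of 7 (median 0.11).

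**Figure D3:**
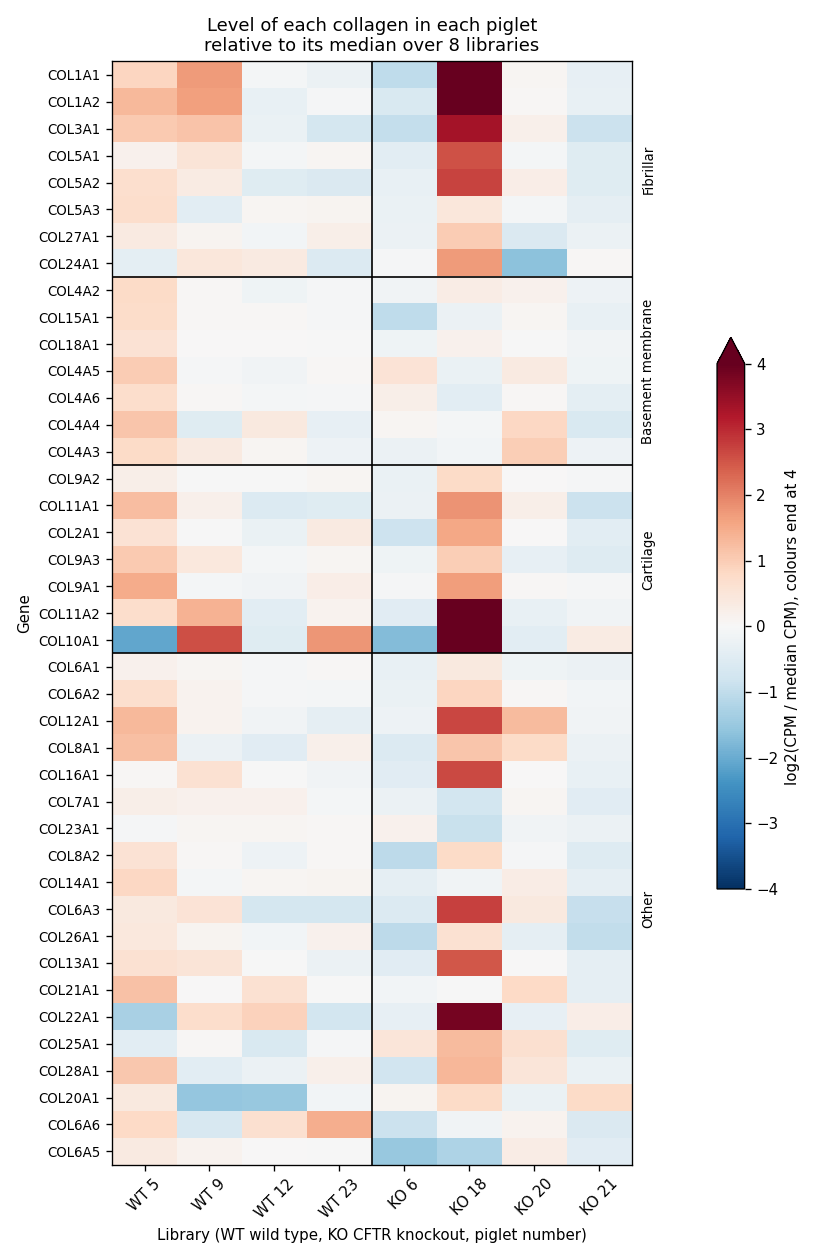
Level of each of the 41 collagen genes (rows, by class) in each library (columns) as log2 of its CPM over the gene's median of the 8 libraries, with red above and blue below the median and the colour scale ending at 4. Knockout piglet 18 is the highest library for 25 genes and wild-type piglet 5 for 13, while knockout piglet 6 is the lowest for 20.

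Among the 19 remaining collagens, COL6A1 and COL6A2, chains of the type VI beaded filaments around cells, were the most abundant per length. The other type VI chains were lower, with a median of 2.90 RPKM for COL6A3 and below 1 RPKM for COL6A5 and COL6A6. COL6A1 had the narrowest range of the 41 genes, at 458, 425, 393 and 414 CPM in the wild type and 326, 527, 357 and 345 CPM in the knockout. COL6A2 was 182, 125, 112 and 109 CPM in the wild type and 95.2, 207, 117 and 107 CPM in the knockout. COL6A3, the longest chain of the same filament, was 43, 47.6, 19.9 and 20 CPM in the wild type and 22.6, 218, 43.2 and 17.5 CPM in the knockout. The highest value was 1.61 times the lowest for COL6A1, 2.17 times for COL6A2 and 12.5 times for COL6A3. In knockout piglet 18, COL6A3 was 9.66 times the median of the others.

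For COL6A1, the 3 knockout values other than piglet 18 all lay under the 4 wild-type values. Its log2 fold change was -0.12 ± 0.15 with all libraries and -0.31 ± 0.09 without that piglet (unadjusted p = 0.00806, edgeR adjusted p = 0.350). COL12A1 and COL16A1, which bind to the surface of fibrils, were highest in knockout piglet 18 as well. COL12A1 was 382, 169, 139 and 120 CPM in the wild type and 133, 980, 374 and 140 CPM in the knockout. COL16A1 was 68.0, 100.5, 64.1 and 59.7 CPM in the wild type and 48.0, 408, 66.5 and 53.2 CPM in the knockout.

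COL7A1, the anchoring fibril that fastens the epithelial basement membrane to the stroma, had the smallest p of the 41 genes. It was 120, 114, 113 and 96.2 CPM in the wild type and 85.7, 60.7, 106 and 74.0 CPM in the knockout, so the groups overlapped through knockout piglet 20 and wild-type piglet 23. The means were 111 ± 10.1 and 81.5 ± 19.1 CPM (SD, n = 4 each), with a log2 fold change of -0.44 ± 0.16 (unadjusted p = 0.0207, edgeR adjusted p = 0.407). It differed from the fibrillar genes in being lowest in knockout piglet 18, and its log2 fold change was -0.32 ± 0.13 without that library. It was named by position, and 135 of its exon bases are shared with UQCRC1.

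A further 2 chains of this class had a p under 0.05 before adjustment. COL25A1, a transmembrane collagen of neurons, was 1.75, 2.44, 1.55 and 2.28 CPM in the wild type and 3.32, 5.71, 3.69 and 1.68 CPM in the knockout, a log2 fold change of 0.84 ± 0.35 (unadjusted p = 0.0409, edgeR adjusted p = 0.431) and 0.53 ± 0.32 without knockout piglet 18. COL6A6, a rare type VI chain, was 0.433, 0.158, 0.387 and 0.675 CPM in the wild type and 0.137, 0.223, 0.273 and 0.166 CPM in the knockout (-1.06 ± 0.46, unadjusted p = 0.0462, edgeR adjusted p = 0.441). COL22A1, found at tissue junctions, was 1.32, 5.25, 6.07 and 1.95 CPM in the wild type and 2.57, 46.3, 2.57 and 3.88 CPM in the knockout, with 1 library far above the other 7. COL8A1, a short-chain collagen of vessel walls, was 144, 52.6, 44.9 and 70.5 CPM in the wild type and 41.9, 134, 105 and 53.1 CPM in the knockout.

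The remaining chains, COL8A2, COL13A1, COL14A1, COL20A1, COL21A1, COL23A1, COL28A1 and COL6A5, are given by range. COL13A1 and COL8A2 were highest in knockout piglet 18, at 27.1 and 64.3 CPM against 3.53 to 7.33 and 18.1 to 55.9 CPM. COL14A1 and COL21A1 were highest in wild-type piglet 5, at 106 and 5.98 CPM against 46.0 to 72.9 and 2.10 to 4.67 CPM. COL23A1, a transmembrane collagen, was instead lowest in knockout piglet 18, at 23.7 CPM against 37.1 to 49.0 CPM. COL20A1, COL28A1 and COL6A5 stayed at or under 1.06 CPM in every library.

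The comparison of genotypes asked whether collagen expression differs without CFTR. EdgeR called 0 of the 41 genes, against 0.00582% of all genes tested in either direction, and so did limma with sample quality weights, which called 0.0640% of all genes. DESeq2, which called 1.28% of all genes, called 0 of the 30 collagens to which it gave an adjusted p. Before adjustment 4 collagens (9.76%) had a p under 0.05, with COL7A1, COL15A1 and COL6A6 lower and COL25A1 higher, close to the 11.2% of all genes. The 4 knockout values lay entirely above or below the 4 wild-type values for 0 of the 41, against 5.81% of all genes. Log2 fold changes from edgeR were above 0 for 21 and below 0 for 20, against 48.4% of all genes below 0. The medians were 0.98 for fibrillar, -0.17 for basement membrane, 0.18 for cartilage, -0.0038 for other collagens and 0.01 for all genes. With limma and sample quality weights, 33 of the 41 were below 0, against 49.0% of all genes. On simulated data with these libraries edgeR called 26% of genes changed 1.5-fold, 74% changed 2-fold and 94% changed 4-fold. Those genes were drawn at random above a minimum level and simulated independently, with no library set apart across genes. The shares are therefore not those for the collagens, among which COL1A1, at a 4.38-fold higher level in the knockout, was not called.

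In the edgeR fit, the direction of the fibrillar and cartilage medians rested on knockout piglet 18. Without it the log2 fold change was below 0 for 37 of the 41 genes, against 51.7% of all genes, and the class medians were -0.49 for fibrillar, -0.58 for cartilage, -0.20 for basement membrane and -0.32 for other collagens. None was called in that fit, with a smallest edgeR adjusted p of 0.335 (COL26A1), but 11 of 41 (26.8%) had an unadjusted p under 0.05 and lower values in the knockout, against 6.69% of all genes. These were COL1A1, COL1A2, COL5A1, COL27A1, COL2A1, COL9A3, COL11A2, COL6A1, COL7A1, COL8A2 and COL26A1. The omitted library was the highest of the 8 for 25 of the 41 genes, against 15.8% of all genes. Leaving it out thus lowers the knockout mean of many collagens by construction, and the shares of all genes are not a like background. The collagens also vary together between piglets and do not count as separate results. The 3 remaining knockout values lay under all 4 wild-type values for COL9A3, COL27A1, COL26A1 and COL6A1, which is 9.76% of the set against 6.59% of all genes. Of these, COL26A1 and COL27A1 were named after their values were seen. COL26A1 was 4.91 to 7.07 CPM in the wild type, 2.55 to 4.12 CPM in those knockouts and 8.08 CPM in piglet 18, and COL27A1 was 15.3 to 21.1, 11.1 to 14.1 and 33.8 CPM.

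The wild-type libraries were also unequal. Wild-type piglet 5 was at least 2-fold above the median of the other 7 libraries for 11 of the 41 genes (26.8%, against 4.52% of all genes) and wild-type piglet 9 for 7 (17.1%, against 2.02%). Without both knockout piglet 18 and wild-type piglet 5, 29 of the 41 log2 fold changes were below 0 (against 49.9% of all genes), 6 genes (14.6%) were lower at an unadjusted p under 0.05 against 7.73% of all genes, and the median of the set was -0.18 in place of -0.39. Without knockout piglet 18 and wild-type piglet 9, a pair chosen after seeing the data, 35 of 40 were below 0 (against 52.6% of all genes), 8 (20%) were lower at that threshold against 4.32% of all genes, and the median was -0.38. Both fits leave out knockout piglet 18, so the same limit holds for their shares. The differences between these fits were not tested.

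**Figure D4:**
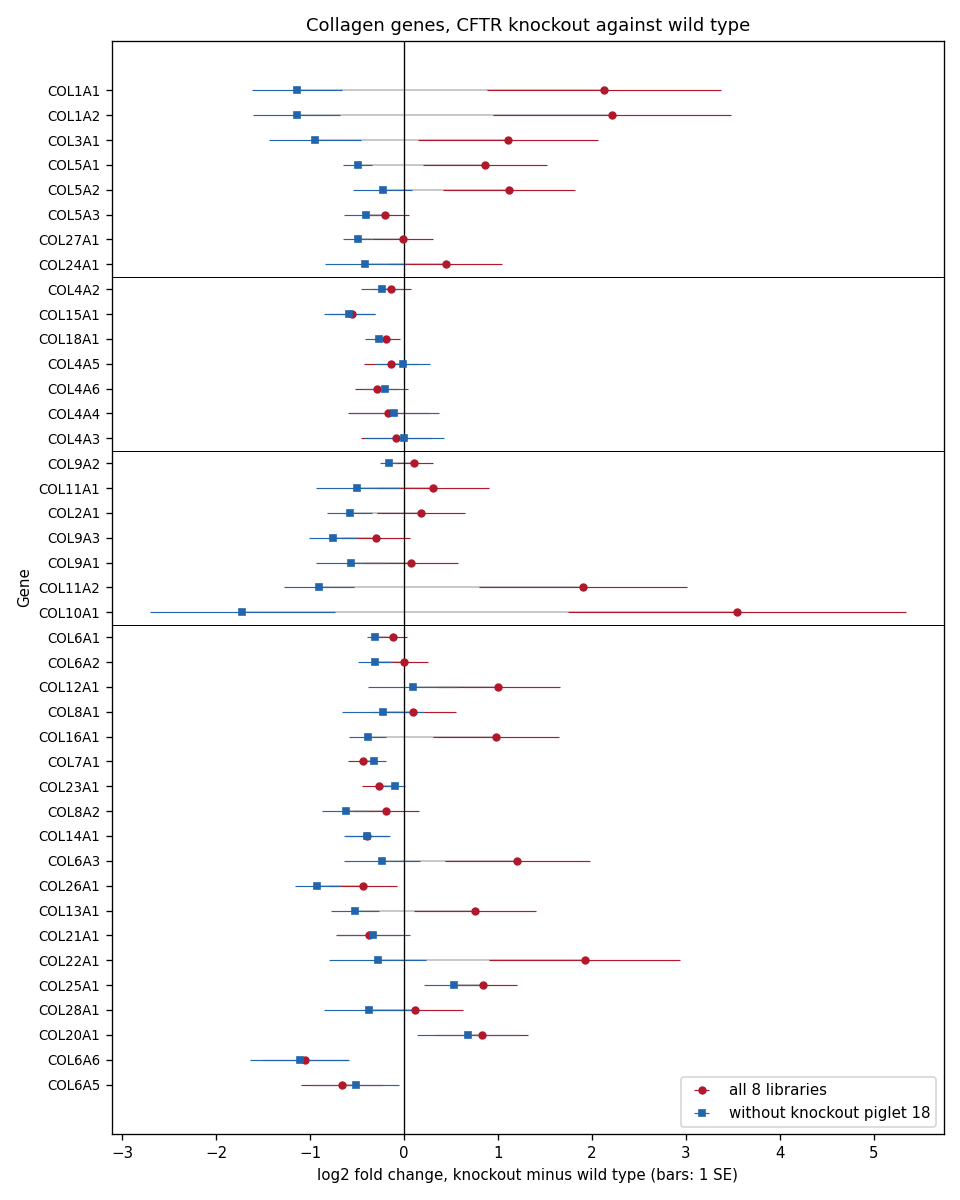
Log2 fold change of each collagen gene, knockout minus wild type, from edgeR with all 8 libraries (red circles) and without knockout piglet 18 (blue squares), with bars of 1 SE and genes grouped from top to bottom as fibrillar, basement membrane, cartilage and other. Fibrillar medians move from 0.98 to -0.49, while basement membrane medians stay at -0.17 and -0.20.

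Knockout piglet 18 was the highest of the 8 libraries for 25 of 41 collagens (61%), against 15.8% of all genes, and at least 2-fold above the median of the others for 21 (51.2%), against 6.50%. By class the 2-fold mark was passed by 7 of 8 fibrillar, 6 of 7 cartilage, 0 of 7 basement membrane and 8 of 19 other chains. Wild-type piglet 5 was highest for 13 (31.7%, against 16.5% of all genes), and knockout piglet 6 was lowest for 20 (48.8%, against 13.3%).

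Pairs of collagen chains were then compared within each library, since their ratio does not depend on library size. Ratios were taken per length. The type I ratio, COL1A1 over COL1A2, was 0.928, 1.33, 1.46 and 1.12 in the wild type and 0.962, 1.11, 1.295 and 1.23 in the knockout. While each gene alone ranged 55.6-fold and 48.3-fold, their ratio ranged 1.57-fold, and knockout piglet 18 lay within the range of the others. The ratio of COL4A5 to COL4A6, 2 X-linked type IV chains, ran from 3.51 to 4.69, and that of COL6A1 to COL6A2 from 1.78 to 2.70. The ratio to COL4A6 is less certain, since that gene shares 1857 exon bases with other genes.

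Other pairs were less constant. COL6A3 over COL6A1 was 0.0336, 0.0402, 0.0181 and 0.0173 in the wild type and 0.0248, 0.148, 0.0434 and 0.0182 in the knockout, an 8.59-fold range that fell to 2.51-fold without knockout piglet 18. COL3A1 over COL1A1, which sets the soft tissue chain against the type I chain shared with bone, was lowest in knockout piglet 18 at 0.281, against 0.521 to 0.888 elsewhere. COL5A1 over COL5A2 ran from 0.742 to 1.60, COL9A1 over COL9A2 from 0.170 to 0.441, COL4A3 over COL4A4 from 0.297 to 0.678 and COL11A1 over COL2A1 from 0.611 to 1.73.

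No ratio passed 0.05 between the genotypes in a two-sided exact permutation test of its log2 values, for which the smallest p possible with 4 against 4 is 0.0286. Over the 9 ratios tested the exact p ran from 0.114 for COL4A5 over COL4A6 to 0.971 for COL4A3 over COL4A4, and the Benjamini-Hochberg adjusted values from 0.918 to 0.971. The mean log2 ratio of COL4A5 to COL4A6 was 1.97 ± 0.18 in the wild type and 2.16 ± 0.08 in the knockout (SD, n = 4 each). It carries the uncertainty of the COL4A6 counts.

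**Figure D5:**
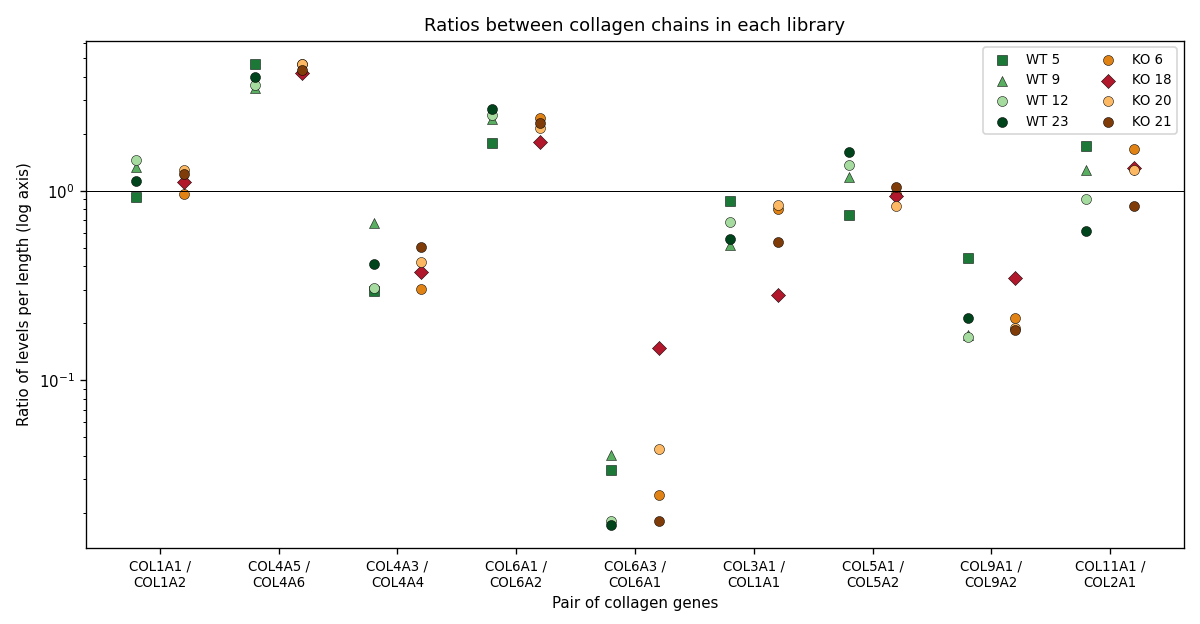
Ratio of levels per length (log axis) for 9 pairs of collagen chains, with wild-type piglets (green) to the left and knockout piglets (orange and red) to the right of each pair, 1 point per library and a line at a ratio of 1. The type I pair lies between 0.928 and 1.46 in all libraries, whereas knockout piglet 18 is highest for COL6A3 over COL6A1 and lowest for COL3A1 over COL1A1.

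Genes that fold, trim, cross-link, bind and degrade collagen were examined as 7 lists of 98 genes, 93 of which were tested. EdgeR called none of the 93, and 5 (against 11.2% of all genes) had an unadjusted p under 0.05. Of these MIA3, which helps load bulky procollagen into transport carriers, had a log2 fold change of 0.34 ± 0.14, MMP16, a membrane-bound metalloproteinase, 0.77 ± 0.29, and LAMA2, a laminin chain of muscle and nerve basement membranes named by position, 0.99 ± 0.36. On the lower side were PPIB, the prolyl isomerase of collagen folding, at -0.41 ± 0.16, and LOXL1, a cross-linking enzyme, at -0.41 ± 0.16. Their edgeR adjusted p ran from 0.409 to 0.426, and the knockout and wild-type values of all 5 overlapped.

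By role, 7 of 19 folding and modification genes had a log2 fold change above 0 (median -0.05), as did 7 of 14 genes of procollagen cleavage and cross-linking (0.07). The share was 11 of 12 among fibril regulators, the small proteoglycans and glycoproteins that shape fibrils (0.35), 9 of 13 among degrading enzymes (0.23) and 7 of 7 among collagen receptors (0.35). It was 9 of 13 among profibrotic signals (0.09) and 10 of 15 among the partners of collagen in basement membranes (0.13). The receptor GP6 had too few counts to be tested. Without knockout piglet 18 the numbers above 0, in the same order, were 2 of 19, 4 of 14, 3 of 12, 2 of 13, 5 of 7, 6 of 13 and 5 of 15. Thus 66 of the 93 lay below 0 (51.7% of all genes did) in place of 33 (48.4% of all genes). In that fit 15 had an unadjusted p under 0.05 on the lower side (6.69% of all genes did). Without wild-type piglet 5, 13 had such a p on the higher side (5.89% of all genes did) and 22 lay below 0 (47.2% of all genes did). Each of these shares moves with the library left out.

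The enzyme MMP13, a collagenase of bone and cartilage, was 58.6, 150, 12.5 and 33.1 CPM in the wild type and 6.03, 2258, 16.8 and 11.3 CPM in the knockout. Its highest libraries, knockout piglet 18 and then wild-type piglet 9, were also the highest for COL1A1, COL10A1 and IBSP. DCN, the small proteoglycan decorin of connective tissue fibrils, was 235, 101, 84.0 and 123 CPM in the wild type and 121, 273, 109 and 88.3 CPM in the knockout. It was highest in knockout piglet 18 and wild-type piglet 5, as were the fibroblast marker sum and COL11A1.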

How the data were processed

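Messenger RNA of olfactory epithelium from 8 newborn piglets was measured, and the deposited table gives whole-number counts for each gene without normalization, beside exon positions and lengths; its columns, per the file headers, are those of featureCounts. Tools named in the submitters' processing notes are the aligner STAR 2.4.0 and the package Subread 1.5.0-p3, as well as DESeq2, HTSeq, featureCounts and FastQC, without saying what each was used for. The reference build and the use of strand in counting are not given in the sources used here, so overlapping and antisense genes are uncertain. Rows of non-pig sequences (0.000305% to 0.00182% of counts) were left out of library sizes and tests.

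Symbols came from a name table (14857 genes) or, for 1623 genes, from at least 50% overlap of both gene spans with a gene of RefSeq assembly Sscrofa11.1. Of 36 collagens named by the table and present in RefSeq, 35 overlapped it in position. Counts were fitted with edgeR 4.0.16 (R 4.3.3; quasi-likelihood test, TMM, default filter, genotype as factor, Benjamini-Hochberg adjustment over 17175 genes, threshold 0.05). The biological coefficient of variation was 26.5%, and SEs were derived from the F statistic. RPKM is TMM-scaled CPM per kilobase of annotated exons. Because those lengths merge all isoforms, levels between genes are approximate. Counting error is small beside the spread between piglets except for genes under about 1 CPM.

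Alternatives were other normalizations and filters, robust estimation, DESeq2 1.42.0, limma 3.58.1 with voom and sample quality weights, and omission of libraries. The method was tested on simulated data with 17175 genes and 50 genes changed per fold size. Of edgeR's calls there, 5.77% were unchanged genes (22.2% for DESeq2). The members, classes and gene lists were chosen with earlier results of these data known. Values per library were given for the 5 members of each class with the highest level per length, the 6 with the smallest p and both genes of each ratio. For the pathway lists, members with a p under 0.05 and some set genes were named. For the marker lists, some set genes and genes of low count were named, not those with a p under 0.05. SPP1 was named after its values were seen. A ratio needed at least 10 counts of both genes in every library. No sequences are shown.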

Additional observations from a re-analysis of the deposited data

Results flagged for a closer look

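A library lay far from the other 3 of its genotype in 28 of 124 groups of 4 values examined, by a gap to its nearest neighbour above Dixon's critical share of the range. Chance flags about 1 in 20 groups of normally distributed values. The values here were CPM without a log scale and all 28 flags were high values, so the chance rate for them is not known. The groups are not independent because the genes share libraries. Of the 28, 19 were in knockout piglet 18, 7 in wild-type piglet 5 and 1 each in wild-type piglet 9 and knockout piglet 20.

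In knockout piglet 18 the fibrillar genes were COL1A1 (17387 CPM), COL1A2 (13268 CPM), COL3A1 (4211 CPM), COL5A2 (739 CPM), COL5A1 (533 CPM) and COL27A1 (33.8 CPM). The cartilage genes were COL9A3 (41.3 CPM), COL9A1 (40.6 CPM), COL10A1 (35.2 CPM) and COL11A2 (214 CPM), and the other collagens COL6A1 (527 CPM), COL16A1 (408 CPM), COL6A3 (218 CPM), COL22A1 (46.3 CPM) and COL13A1 (27.1 CPM). Beside them stood the collagenase MMP13 (2258 CPM), IBSP of bone (1838 CPM), and ACAN (256 CPM) and COMP (5.71 CPM) of cartilage. No basement membrane collagen was among the genes set apart in this library.

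In wild-type piglet 5 the genes were the basement membrane collagens COL15A1 (193 CPM), COL18A1 (177 CPM), COL4A5 (87.9 CPM) and COL4A6 (12.9 CPM), with COL9A1 (35.4 CPM), COL14A1 (106 CPM) and CFTR (56.5 CPM). IBSP was 117 CPM in wild-type piglet 9, and COL4A3 was 1.12 CPM in knockout piglet 20.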

How the results depend on the processing

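No paired analysis was made, because the labels name no litters or other pairs. EdgeR called 0 of the 41 collagens and 0 of the 93 pathway genes with every normalization, filter and omission tried. With DESeq2, 9 collagens (COL1A1, COL1A2, COL5A1, COL5A2, COL10A1, COL11A2, COL13A1, COL16A1 and COL22A1) had no p, since DESeq2 withholds it from genes with an extreme count, COL20A1 and COL6A5 had no adjusted p, and the smallest adjusted p was 0.214 (COL7A1). The smallest with limma and sample quality weights was 0.137 (COL26A1), where wild-type piglets 5 and 12 and knockout piglet 18 had the lowest weights, at 0.464, 0.576 and 0.641. Other size factors, a normalization without collagen, bone and cartilage genes, both filters and robust estimation kept the direction of every collagen compared. The CFTR call was lost without knockout piglet 6 or 20, and when knockout piglet 18 was left out together with wild-type piglet 9, where its adjusted p was 0.0557 at a log2 fold change of -2.53.

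The median log2 fold change was -0.26 for fibrillar and -0.28 for cartilage collagens with limma. With 1 library left out in turn it ran from -0.49 to 1.28 for fibrillar and from -0.58 to 0.58 for cartilage collagens, the low end being the fit without knockout piglet 18. The fibrillar median was -0.52 with knockout piglet 18 and wild-type piglet 5 both left out. Leaving out wild-type piglet 9 in place of piglet 5 gave fibrillar and cartilage medians of -0.54 and -0.59.

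Leaving out 1 library in turn gave log2 fold changes on both sides of 0, none called, for 26 of the 41 collagens. These were COL11A2 (-0.91 to 2.29), COL24A1 (-0.41 to 0.77), COL27A1 (-0.50 to 0.16), COL5A3 (-0.40 to 0.023), COL13A1 (-0.52 to 1.03), COL28A1 (-0.37 to 0.50), COL8A2 (-0.62 to 0.03), COL10A1 (-1.72 to 4.34), COL11A1 (-0.50 to 0.82), COL16A1 (-0.39 to 1.27), COL1A1 (-1.14 to 2.65), COL1A2 (-1.14 to 2.60), COL22A1 (-0.28 to 2.27), COL2A1 (-0.58 to 0.43), COL3A1 (-0.95 to 1.46), COL4A2 (-0.25 to 0.11), COL4A3 (-0.47 to 0.11), COL4A4 (-0.49 to 0.23), COL4A5 (-0.30 to 0.20), COL5A1 (-0.49 to 1.15), COL5A2 (-0.23 to 1.41), COL6A2 (-0.31 to 0.18), COL6A3 (-0.23 to 1.54), COL8A1 (-0.23 to 0.57), COL9A1 (-0.57 to 0.58) and COL9A2 (-0.16 to 0.23). Differences of the mean log2 ratio did so for COL11A1 over COL2A1 (-0.027 to 0.47), COL1A1 over COL1A2 (-0.18 to 0.035), COL3A1 over COL1A1 (-0.39 to 0.14), COL4A3 over COL4A4 (-0.17 to 0.23) and COL9A1 over COL9A2 (-0.24 to 0.28). The sign also changed for 17 of 41 collagens with limma, among them, of those with values per library in the report, COL4A5 0.041, COL11A1 -0.061, COL9A2 -0.034, COL2A1 -0.37, COL9A1 -0.0705, COL1A1 -0.43, COL1A2 -0.33, COL3A1 -0.39, COL5A1 -0.21, COL16A1 -0.082, COL8A1 -0.035, COL10A1 -0.88 and COL4A4 0.049. With knockout piglet 18 and wild-type piglet 5 left out it changed for 19 of 41, among them COL4A2 0.014, COL4A5 0.32, COL4A6 0.012, COL9A2 -0.11, COL2A1 -0.43, COL9A1 -0.054, COL1A1 -1.12, COL1A2 -0.98, COL3A1 -0.73, COL5A1 -0.50, COL16A1 -0.42, COL10A1 -2.11, COL22A1 -0.56, COL4A3 0.20, COL4A4 0.30 and COL6A3 -0.076. With wild-type piglet 9 left out in place of piglet 5 it changed for 17 of 40, among them COL11A1 -0.53, COL9A2 -0.19, COL2A1 -0.65, COL9A1 -0.73, COL1A1 -0.62, COL1A2 -0.76, COL3A1 -0.67, COL5A2 -0.14, COL5A1 -0.37, COL16A1 -0.20, COL8A1 -0.38, COL22A1 -0.057 and COL4A3 0.023. COL10A1 did not pass the filter in that last fit. Beyond the omitted libraries, the causes were not tested. With 3 libraries against 4, the smallest exact p for a ratio is 0.0571. Genes below 1 CPM rest on few counts, and their values are the least certain.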
